A study of Mus musculus with 12 samples.

Results

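The genes described here encode the inhibitor, the lipases and the coat proteins that govern the triglyceride of liver lipid droplets. They are G0s2, Pnpla2, Abhd5, Mgll, Plin2, Plin4, Plin5, Cideb and Cidec, 9 of the 10 genes listed and 9 of the 11587 genes in the table. The tenth, Pnpla3, is not analysed here. G0s2 was chosen by its lower total RNA score in Maf1 KO liver, and the other genes were added by their function and because the table holds them. The total RNA difference of these genes between genotypes is therefore given as a description, and the count of genes past a threshold there is not read as a test of them. The series measured translation in the liver of C57BL/6 mice by ribosome profiling, in which the mRNA pieces that ribosomes protect from nuclease (footprints) and the total RNA of each liver extract are sequenced in parallel. The Maf1 KO mice lack MAF1, the main repressor of RNA polymerase III, and wild-type mice served as controls. Each genotype had 3 mice, Maf1 KO 1, 2 and 4 and wild-type 1, 2 and 3, and each mouse gave 1 footprint and 1 total RNA library, 12 in all. According to the labels all mice were 12 to 14 weeks old, refed and killed at 9 PM, while the study's methods describe free access to food. Maf1 is not analysed here, and the genotypes rest on the labels alone. Library medians ran from 8.75 to 9.34 in total RNA, highest in Maf1 KO 1, and from 7.17 to 8.02 in footprints, lowest in Maf1 KO 1 and highest in wild-type 3, so values relative to the library median are given as well.

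Hepatocytes store triglyceride in droplets whose surface carries perilipins and CIDE proteins. Adipose triglyceride lipase, encoded by Pnpla2, starts hydrolysis, its coactivator is encoded by Abhd5, and G0S2 is a small protein that binds and inhibits the lipase. Monoacylglycerol lipase, encoded by Mgll, completes the release of fatty acids. In liver, G0s2, Plin2, Plin5 and Cidec are known as target genes of PPAR nuclear receptors, and G0s2 and Cidec are known to be high where fat accumulates.

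The promoters of 3 genes are shown because G0s2 and Cidec were the members whose total RNA scores separated the genotypes and Plin2, an abundant coat gene, was not. Each window holds 300 bases, most of them before the start that RefSeq annotates, 5′ to 3′. Capitals mark a match on either strand to the nuclear receptor core AGGTCA, the E-box core CACGTG, the box known as CCAAT, the GC box GGGCGG or the TATA box TATAAA. Cidec has a second annotated start, which is not shown.
G0s2 (GRCm38.p6, chr1:193273139-193273438, minus strand): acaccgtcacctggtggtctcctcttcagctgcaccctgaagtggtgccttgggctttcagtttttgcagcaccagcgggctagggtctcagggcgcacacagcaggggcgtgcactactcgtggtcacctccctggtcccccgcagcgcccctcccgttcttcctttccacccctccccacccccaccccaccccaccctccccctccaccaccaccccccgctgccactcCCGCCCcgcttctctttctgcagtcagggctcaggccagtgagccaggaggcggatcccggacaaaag
Cidec (GRCm38.p6, chr6:113435711-113436010, minus strand): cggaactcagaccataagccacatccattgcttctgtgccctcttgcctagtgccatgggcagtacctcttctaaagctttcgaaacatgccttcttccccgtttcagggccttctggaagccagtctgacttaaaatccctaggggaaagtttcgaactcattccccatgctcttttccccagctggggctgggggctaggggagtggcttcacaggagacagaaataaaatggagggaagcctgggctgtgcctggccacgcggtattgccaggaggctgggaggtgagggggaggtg
Plin2 (GRCm38.p6, chr4:86670010-86670309, minus strand): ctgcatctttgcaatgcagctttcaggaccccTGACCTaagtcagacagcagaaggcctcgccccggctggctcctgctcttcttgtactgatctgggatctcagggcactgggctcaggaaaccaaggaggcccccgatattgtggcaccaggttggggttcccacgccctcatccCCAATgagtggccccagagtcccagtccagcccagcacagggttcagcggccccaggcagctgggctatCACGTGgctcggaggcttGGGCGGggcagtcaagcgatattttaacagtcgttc

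The G0s2 window held a single match, GGGCGG on the opposite strand, and neither Cidec window held any of the 5 motifs. Plin2 matched every motif other than the TATA box, each at 1 place. RefSeq windows were found for all 9 genes, 12 windows in all, and the share of 32851 mouse promoter windows with a match was 16.26% for AGGTCA, 7.15% for CACGTG, 37.41% for CCAAT, 35.66% for GGGCGG and 13.62% for TATAAA. Among the 9 genes, AGGTCA matched in 3 (Plin2, Abhd5 and Plin5), CACGTG in 2 (Plin2 and Mgll), CCAAT in 3 (Plin2, Plin4 and Plin5), GGGCGG in 7 and TATAAA in 1 (Cideb). None of the 5 motifs was shared by G0s2 and Cidec. A match describes these letters only and was not read as a binding site.

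The level of each gene is the deposited log2 score minus the log2 of its coding length in kilobases, so that genes of different length can be set side by side. In wild-type total RNA, G0s2 (chromosome 1, 195098355 to 195099382 of NCBIM37, minus strand) had the highest level, 15.56 ± 0.45 (SD, n = 3), from a coding sequence of only 312 bases. Cideb (chromosome 14, 56372882 to 56377295, minus strand), which encodes a CIDE protein of hepatocytes that acts in lipoprotein lipidation, followed at 13.81 ± 0.41, and Plin2 (chromosome 4, 86294290 to 86315964, minus strand), the main hepatocyte perilipin, at 12.90 ± 0.36. Each of these steps was larger than the spread, with no overlap between neighbours over the wild-type mice. Mgll (chromosome 6, 88674406 to 88778354, plus strand) stood at 11.51 ± 0.57, Abhd5 (chromosome 9, 122260726 to 122290642, plus strand) at 10.47 ± 0.63, and Plin5 (chromosome 17, 56251024 to 56257019, minus strand), the perilipin of oxidative tissues, at 10.10 ± 0.16. Mgll overlapped Abhd5, and Abhd5 overlapped Plin5. Pnpla2 (chromosome 7, 148641097 to 148646642, plus strand) stood at 9.70 ± 0.17. Cidec (chromosome 6, 113374628 to 113385754, minus strand), a CIDE protein that enlarges droplets, was much lower at 7.33 ± 0.53, and Plin4 (chromosome 17, 56240014 to 56249225, minus strand), a perilipin of adipocytes and muscle, was the lowest at 5.30 ± 0.33. The mRNA of the lipase inhibitor was thus the most abundant and the mRNA of the lipase it inhibits among the less abundant. In footprints the order of the 9 genes was the same, but G0s2 (14.06 ± 0.87) no longer separated from Cideb (13.87 ± 0.14), while Plin2 (12.24 ± 0.03) and Mgll (11.07 ± 0.13) stayed apart from their neighbours. Abhd5 (9.76 ± 0.30), Plin5 (9.36 ± 0.29) and Pnpla2 (9.22 ± 0.07) overlapped in turn, and Cidec (6.33 ± 1.27) and Plin4 (2.89 ± 0.34) remained last.

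**Figure D1:**
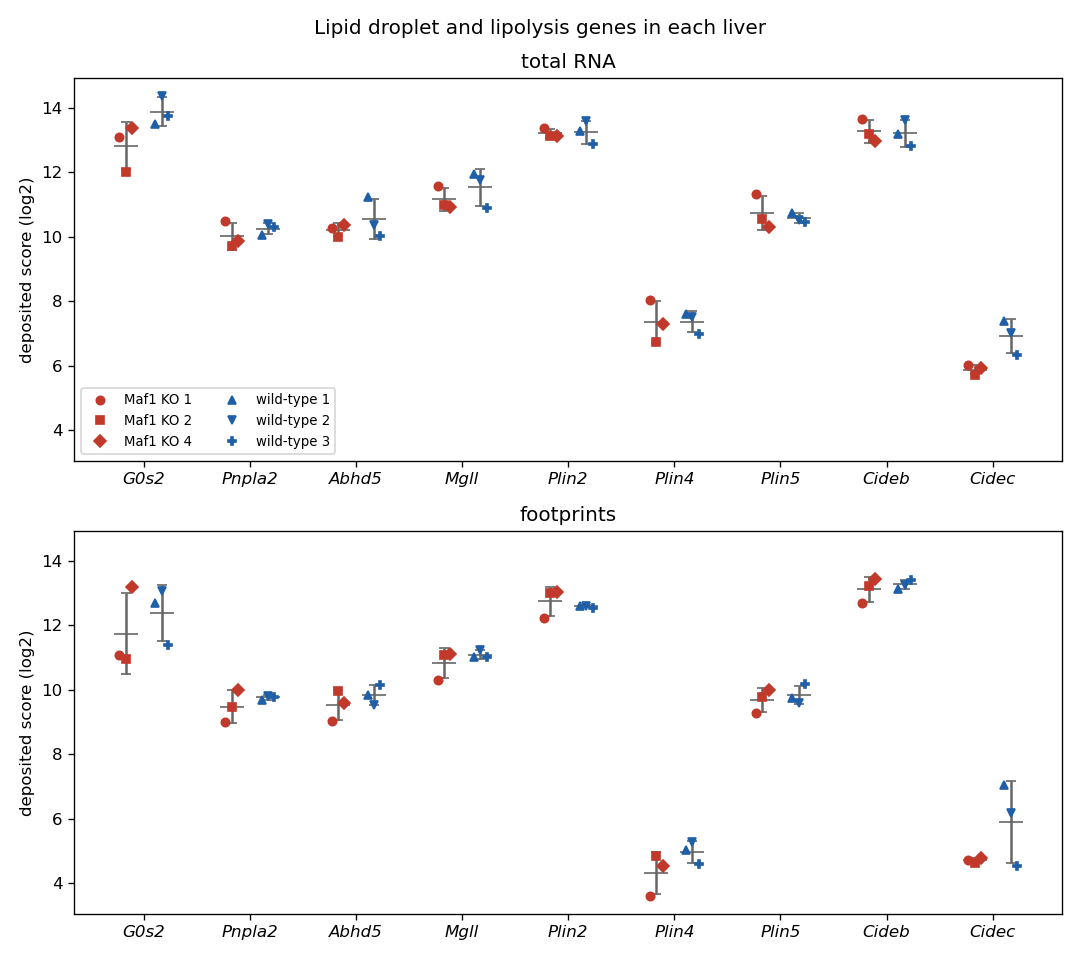
Deposited log2 score (y axis) of each gene in total RNA (top) and footprints (bottom), with 1 point per mouse and the mean ± SD of each genotype. G0s2 in total RNA ran from 12.01 to 13.39 in Maf1 KO and from 13.49 to 14.38 in wild-type mice, whereas in footprints Maf1 KO 4 (13.20) was above every wild-type mouse.

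The first comparison asked whether mRNA levels differed between Maf1 KO and wild-type liver. G0s2 and Cidec had lower total RNA in every Maf1 KO mouse than in any wild-type mouse, by about the same amount, while the lipases, the coactivator, the perilipins and Cideb overlapped between genotypes. The total RNA score of G0s2 was 13.09, 12.01 and 13.39 in Maf1 KO 1, 2 and 4 and 13.49, 14.38 and 13.76 in wild-type 1, 2 and 3. Maf1 KO 2 was the lowest and Maf1 KO 4 lay close to wild-type 1. The difference was -1.05 (SE 0.24), a 2.07-fold lower mean. With each library centred on the median of its genes the difference was -1.07, but Maf1 KO 4 (4.56) then exceeded wild-type 1 (4.49) and the groups overlapped. Cidec scored 6.01, 5.71 and 5.92 in Maf1 KO and 7.38, 7.03 and 6.34 in wild-type mice, a difference of -1.03 (SE 0.33), 2.05-fold lower. Its Maf1 KO scores lay within a narrow range and its wild-type scores were spread, and the separation held with centred libraries (-3.33, -3.04 and -2.91 against -1.62, -2.01 and -2.49 relative to the library median). Cidec thus scored below the library median in every mouse, and the filter on low scores left it out. How much its low score adds to its spread was not tested. In bulk liver, fewer cells of a type and less RNA per cell cannot be told apart.

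Of the 9 genes, 1 (G0s2) passed an adjusted p of 0.05 in total RNA, where 0.276% of all genes passed (32 of 11587), and 2 did not overlap between genotypes, where 5.5% of all genes did not. With centred libraries 1 (Cidec) did not overlap, where 13.9% of all genes did not. Nothing is read from these counts, because G0s2 was listed for this difference. The difference of G0s2 ranged from -0.64 without Maf1 KO 2 to -1.33 without Maf1 KO 4. G0s2 was not among the genes past the threshold with centred or quantile-normalized libraries, with a common prior variance, with the replicate number as a block, or without Maf1 KO 1, Maf1 KO 2, wild-type 2 or wild-type 3.

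The other genes of the lipolytic cascade had smaller total RNA differences in the same direction. Pnpla2 scored 10.49, 9.71 and 9.86 in Maf1 KO and 10.05, 10.39 and 10.30 in wild-type mice (difference -0.23, SE 0.26). Abhd5 scored 10.29, 9.99 and 10.37 against 11.25, 10.37 and 10.04 (-0.33, SE 0.26), with wild-type 1 alone above the rest. Mgll scored 11.57, 11.00 and 10.91 against 11.95, 11.76 and 10.89 (-0.37, SE 0.25), and wild-type 3 was as low as the lowest Maf1 KO mice. The groups overlapped for each of these genes. Of the coat genes, Plin2 scored 13.38, 13.14 and 13.12 against 13.30, 13.58 and 12.87 (-0.04, SE 0.24). Plin5 scored 11.34, 10.55 and 10.32 against 10.75, 10.53 and 10.45 (0.16, SE 0.26), Plin4 8.03, 6.73 and 7.28 against 7.62, 7.51 and 6.99 (-0.02, SE 0.30), and Cideb 13.66, 13.18 and 12.97 against 13.19, 13.64 and 12.81 (0.06, SE 0.24). Maf1 KO 1 was the highest mouse for Plin4, Plin5 and Cideb, whose whole total RNA library stood highest. After centring it still exceeded the wild-type range for Plin4 and Plin5 but not for Cideb. Over the 9 genes the median difference was -0.23, with 7 of 9 below 0, beside a median of 0.00 over all genes. It moved with single mice, partly because the median over all genes moved too. Without wild-type 1 it was -0.01, with 5 of 9 below 0, close to the 0.02 over all genes. Without Maf1 KO 2 it was -0.07, with 5 of 9 below 0, beside 0.11 over all genes. Without Maf1 KO 1 it was -0.37, with 9 of 9 below 0, beside -0.17 over all genes.

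Within a library, a ratio of 2 genes is free of any scaling between libraries. These pairs were chosen after their values had been seen. The ratios of Plin2 to Plin5 and of G0s2 to Abhd5 were also computed. In footprints they differed by 0.31 and -0.32 (exact two-sided permutation test, p = 0.2 and 0.8). With 3 mice per genotype this test cannot fall under 0.10, so no conclusion is drawn from its p-values. The log2 ratio of G0s2 to Pnpla2, inhibitor to lipase, was 2.60, 2.30 and 3.52 in total RNA of Maf1 KO mice and 3.44, 3.99 and 3.46 in wild-type mice, so that Maf1 KO 4 lay inside the wild-type range and the other Maf1 KO mice below it. In footprints the ratio was 2.09, 1.48 and 3.21 against 3.02, 3.23 and 1.60, a difference of -0.36 (exact two-sided permutation test, p = 0.70, smallest possible 0.10). The score of the inhibitor exceeded that of the lipase in every library of both kinds, before any correction for the shorter coding sequence of G0s2. The ratio of the CIDE genes, Cidec to Cideb, was -7.65, -7.46 and -7.05 against -5.80, -6.61 and -6.48 in total RNA, with no overlap. In footprints it was -7.96, -8.61 and -8.67 against -6.10, -7.10 and -8.88 (difference -1.05, exact two-sided permutation test, p = 0.40), and wild-type 3 was the lowest of all.

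The second comparison asked whether ribosome footprints differed, a second set of libraries from the same mice and extracts. The total RNA score rather than the footprints put G0s2 on the list, but the list was drawn up with earlier results of both known. None of the 9 genes passed the limma test, where 0.0863% of all genes did (10 of 11587). On the deposited scale 1 (Cidec) had an unadjusted p under 0.05, where 2.49% of all genes had. With centred libraries the limma unadjusted p of Cidec was 0.156. All 9 overlapped between genotypes, where 5.7% of all genes did not. G0s2 footprints scored 11.08, 10.94 and 13.20 in Maf1 KO 1, 2 and 4 and 12.70, 13.05 and 11.39 in wild-type 1, 2 and 3. Maf1 KO 4 was the highest mouse and wild-type 3 was near the low Maf1 KO mice. The difference was -0.64 (SE 0.38, limma adjusted p = 1). Single mice moved it from -0.24 without Maf1 KO 2, -0.30 without wild-type 2 and -0.31 without Maf1 KO 1 to -1.13 without wild-type 3 and -1.37 without Maf1 KO 4, and it passed in none of these. Cidec footprints scored 4.73, 4.62 and 4.77 against 7.04, 6.17 and 4.53, a difference of -1.20 (SE 0.41, limma adjusted p = 0.87). The SE of 0.41 is too small for the spread of the wild-type scores of Cidec (SD 1.27). Again wild-type 3 lay outside its group, being the lowest of the 6 mice, and without it the difference was -1.89 and passed (limma adjusted p = 0.000115). Without wild-type 1, the highest mouse, the difference was -0.64 (limma adjusted p = 0.849). With the libraries centred and both Maf1 KO 1 and wild-type 3 left out it was -2.05 and did not pass.

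The remaining footprint differences were small beside their errors. Pnpla2 scored 8.99, 9.46 and 9.99 against 9.69, 9.82 and 9.79 (-0.28, SE 0.35), Abhd5 9.02, 9.95 and 9.58 against 9.83, 9.53 and 10.14 (-0.32, SE 0.35), and Mgll 10.30, 11.08 and 11.11 against 11.01, 11.25 and 11.03 (-0.27, SE 0.36). Maf1 KO 1 was the lowest mouse for each lipolytic enzyme and for the coactivator. Among the coats, Plin2 scored 12.22, 13.00 and 13.03 against 12.61, 12.61 and 12.55 (0.16, SE 0.38), the only positive difference on the deposited scale, with the wild-type mice almost identical. Relative to the library median the wild-type mice were spread, at 5.24, 5.13 and 4.53. Plin5 scored 9.28, 9.79 and 9.99 against 9.75, 9.61 and 10.17 (-0.15, SE 0.35), Cideb 12.68, 13.24 and 13.44 against 13.14, 13.27 and 13.41 (-0.15, SE 0.39), and Plin4 3.60, 4.84 and 4.53 against 5.02, 5.27 and 4.60 (-0.64, SE 0.44). Maf1 KO 1, whose whole footprint library stood lowest, was lowest in these too. After centring it stayed lowest for Abhd5, Plin5 and Plin4, while wild-type 3 was lowest for Pnpla2, Mgll, Plin2 and Cideb. The median over the 9 genes was -0.28, with 8 of 9 below 0, beside -0.18 over all genes. With centred libraries it was -0.10 beside 0.01, and 6 of 9 were below 0.

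**Figure D2:**
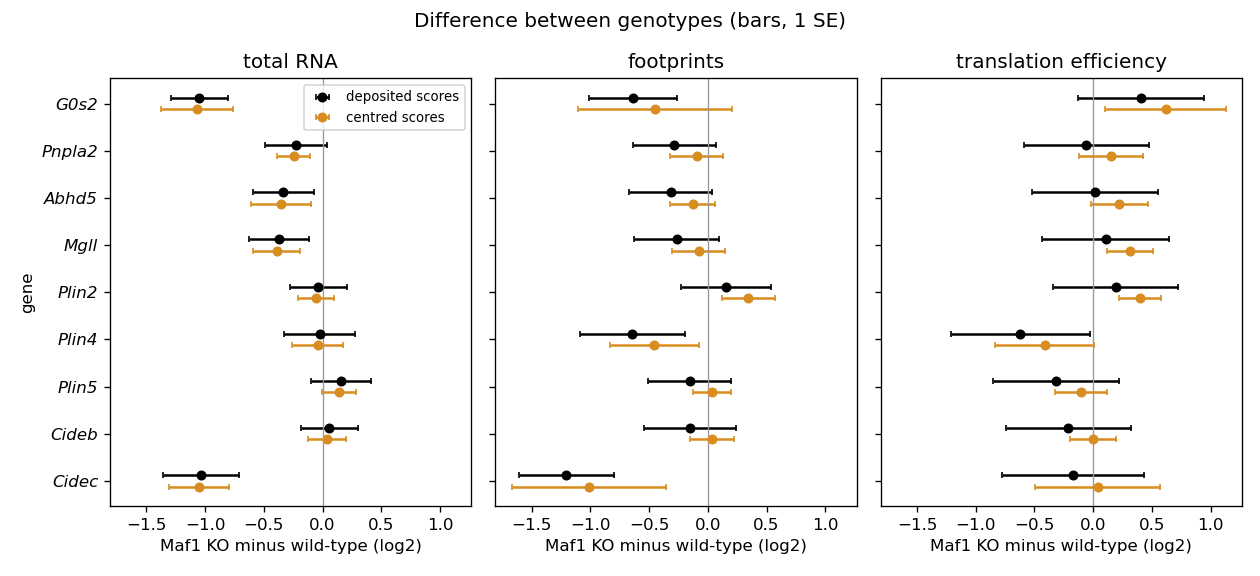
Maf1 KO minus wild-type difference (x axis, log2) of each gene (y axis) in total RNA, footprints and translation efficiency, with bars of 1 SE, for deposited scores and for libraries centred on their medians. G0s2 (-1.05) and Cidec (-1.03) stand apart in total RNA, and Cidec (-1.20) in footprints.

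Translation efficiency was obtained for each mouse by subtracting its total RNA score from its footprint score, to ask whether footprints per mRNA differed between genotypes. This measure contains the total RNA score, so the difference of G0s2, chosen by a low total RNA score in Maf1 KO, is pushed upward by that choice and is a description only. On the deposited scale none of the 9 genes was past the limma threshold, where 0.00863% of all genes were (1 of 11587). None had an unadjusted p under 0.05, where 0.734% of all genes had. G0s2 had a difference of 0.41 (SE 0.53), Plin2 of 0.19 (SE 0.53), Mgll of 0.11 (SE 0.54), Abhd5 of 0.02 (SE 0.54), Pnpla2 of -0.06 (SE 0.54), Cidec of -0.17 (SE 0.60), Cideb of -0.21 (SE 0.53), Plin5 of -0.31 (SE 0.54) and Plin4 of -0.62 (SE 0.59), with limma adjusted p = 1 for each of the 8 genes other than G0s2. With an SE between 0.53 and 0.60, sizeable changes in either direction were not detectable on this scale. With centred libraries the SE ran from 0.18 for Plin2 to 0.53 for Cidec, and none of the 9 genes passed there either. With centred libraries Plin2 had 0.86, 0.90 and 1.03 in Maf1 KO and 0.80, 0.46 and 0.32 in wild-type mice, the only member without overlap, where 7.44% of all genes did not overlap. The centred difference of Plin2 was 0.40 (SE 0.18, limma unadjusted p = 0.0456, adjusted p = 0.999), where 2.83% of all genes had an unadjusted p under 0.05. The median difference was -0.06 over the 9 genes and -0.19 over all genes.

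Which of these mRNAs carried more or fewer footprints than a typical mRNA was asked next, over all 6 mice, with translation efficiency given relative to the median gene of each mouse. Of the 9 genes, 6 were above the typical gene, where 37.1% of all genes were, and 1 was below, where 37.2% were. Cideb had the highest value, 1.04, 1.10 and 1.60 in Maf1 KO and 1.44, 1.07 and 1.24 in wild-type mice, a mean of 1.25 (SE 0.10, limma adjusted p = 1.5e-06) or 2.37-fold. It was above 1 in every mouse. The lipases followed. Mgll had 0.74, 1.13 and 1.32 against 0.55, 0.92 and 0.77, a mean of 0.91 (SE 0.10, limma adjusted p = 1.37e-05), and Pnpla2 0.52, 0.79 and 1.26 against 1.12, 0.87 and 0.13, a mean of 0.78 (SE 0.14, limma adjusted p = 0.000455). Both were above 0 in all 6 mice. Plin2 had a mean of 0.73 (SE 0.09, limma adjusted p = 2.97e-05) and Abhd5, with 0.75, 1.00 and 0.33 against 0.07, 0.60 and 0.74, a mean of 0.58 (SE 0.12, limma adjusted p = 0.0011). Plin5 had -0.04, 0.28 and 0.80 against 0.49, 0.51 and 0.35, a mean of 0.40 (SE 0.11, limma adjusted p = 0.00763), a call lost when genes with low scores were removed (limma adjusted p = 0.0781).

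G0s2 and Cidec were at the level of the typical gene but were the most variable of the genes. G0s2 had 0.01, -0.03 and 0.95 in Maf1 KO and 0.69, 0.11 and -1.73 in wild-type mice, a mean of 0.00 (SE 0.26, limma adjusted p = 0.999). Cidec had 0.73, -0.04 and -0.02 against 1.14, 0.57 and -1.17, a mean of 0.20 (SE 0.27, limma adjusted p = 0.509). Wild-type 3 was the lowest mouse for both, and without it Cidec passed at 0.54 (limma adjusted p = 0.0242). The SD over the 6 mice was 0.94 for G0s2 and 0.81 for Cidec, against 0.63 for Plin4 and 0.23 to 0.41 for Pnpla2, Abhd5, Mgll, Plin2, Plin5 and Cideb.

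Plin4 was the one mRNA below the typical gene, with -2.42, -0.85 and -1.62 in Maf1 KO and -1.11, -0.80 and -1.76 in wild-type mice, a mean of -1.43 (SE 0.21, limma adjusted p = 0.000122). It was below 0 in every mouse. Its coding sequence of 4212 bases contains a tandem repeat, and 35.39% of its windows of 28 bases, about the length of a footprint, occur there more than once, against 0.0% in the other 8 genes. The commonest such window occurs 8 times and is shown in capitals because the count of tags on this mRNA depends on how repeated tags were placed, a step for which the sources used here give no account.
Plin4 repeat (chromosome 17, coding strand): CACAGGGGCTGTGAACGTGGCTAAAGGT
How much the repeat moved the footprint or total RNA score of Plin4 was not tested.

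**Figure D3:**
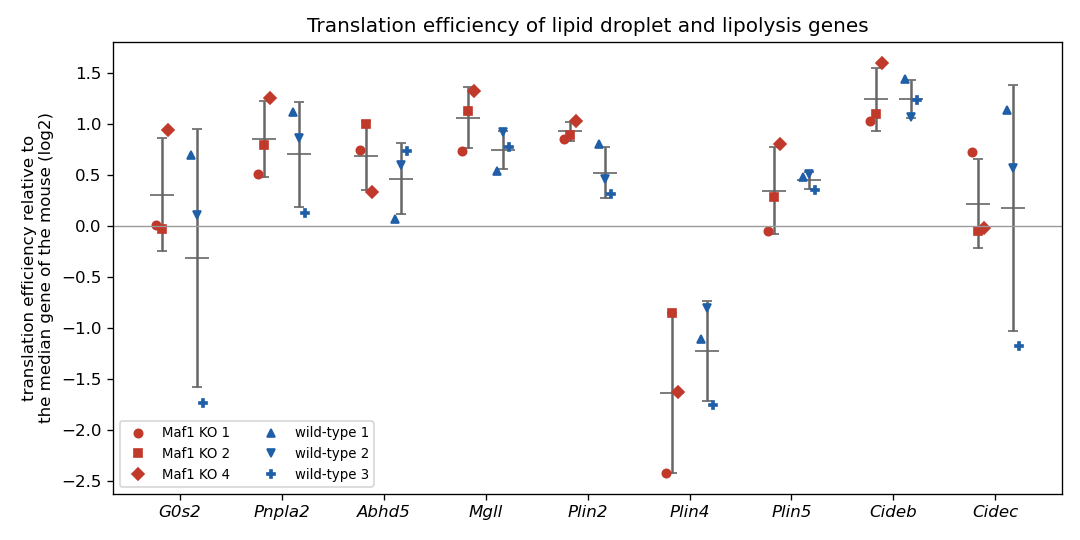
Translation efficiency (y axis, log2) of each gene relative to the median gene of the same mouse, with 1 point per mouse and the mean ± SD of each genotype. Cideb lies above 1 and Plin4 below 0 in every mouse, and wild-type 3 is far below the other mice for G0s2 (-1.73) and Cidec (-1.17).

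Genes with a profile like that of G0s2 were looked for among 5023 genes above the median level in both library types. A profile was the score relative to the library median and to the gene's own mean in its library type, over 12 libraries, and likeness was the root mean square difference of 2 profiles. The nearest were Arrdc3 (0.32), which encodes an arrestin-domain protein, mKIAA1376 (0.33), which RefSeq lists as a synonym of Arrdc3, Slc22a7 (0.38), an organic anion transporter, Inhbe (0.39), an inhibin subunit made in liver, and Selenbp2 (0.43), a selenium-binding protein. For scale, the root mean square of the G0s2 profile itself was 0.86. As synonyms, Arrdc3 and mKIAA1376 stand for 1 gene, so the 5 profiles are not all separate genes. In total RNA all 5 were below their own mean in Maf1 KO 1 and 2, least for Inhbe in Maf1 KO 1 (-0.28). In Maf1 KO 4 they were near the wild-type mice, apart from Selenbp2 (0.75), which exceeded every wild-type mouse (highest 0.515). In footprints all 5 were below their own mean in Maf1 KO 1, Maf1 KO 2 and wild-type 3. Their total RNA differences between genotypes were -0.92, -0.93, -0.79, -0.62 and -0.60, in the order named, and none passed the test. The genes were picked for this likeness over both library types, so that they share the pattern of G0s2 is no separate result.

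**Figure D4:**
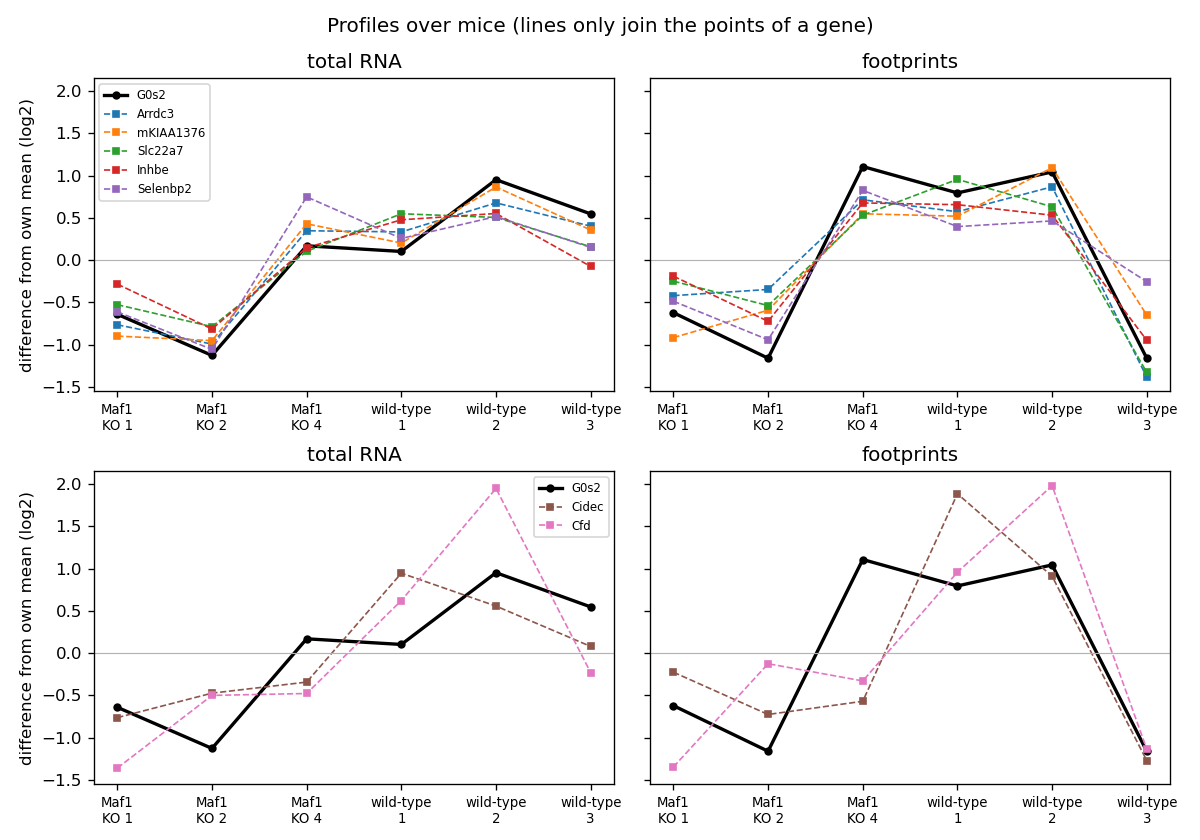
Score of each gene relative to the library median and to its own mean in the library type (y axis, log2) in each mouse (x axis), for G0s2 with the 5 nearest genes (top) and for G0s2, Cidec and Cfd (bottom). G0s2 and its neighbours are below their own mean in Maf1 KO 1 and 2 in both library types and in wild-type 3 in footprints. Of these genes only Inhbe (-0.08) is below its mean in total RNA of wild-type 3.

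Signs of other cells were looked at beside these differences. Of 7 adipocyte markers, Cfd, Fabp4 and Lipe were measured, and Adipoq, Lep, Retn and Plin1 are not analysed here. Cfd, a secreted serine protease of adipocytes, scored 5.45, 5.73 and 5.82 in total RNA of Maf1 KO and 7.10, 8.46 and 6.07 in wild-type mice, and fell by 1.54 (SE 0.33, limma adjusted p = 0.00178), a call lost with centred libraries (limma adjusted p = 0.463). The SE of 0.33 is too small for the spread of Cfd between the wild-type mice. In footprints Cfd scored 4.96, 6.58 and 6.37 against 7.47, 8.59 and 6.02, with wild-type 3 low beside the other wild-type mice, as for G0s2 and Cidec. Fabp4 went the other way, wild-type 3 having the highest footprint score of the 6 mice (11.50, against 9.46 to 9.90), also relative to the library median (3.48). Lipe was highest in wild-type 3 as deposited (7.32). Relative to the library median, wild-type 3 (-0.71) lay inside the range of the other mice for Lipe (-0.97 to -0.22). Fabp4, the adipocyte and endothelial fatty acid carrier, had a total RNA difference of 0.15 and Lipe, hormone-sensitive lipase, of 0.30, and neither passed. The summed level of the 3 measured adipocyte markers relative to the library median was 1.17 to 1.48 in Maf1 KO and 1.22 to 1.42 in wild-type total RNA, and overlapped. This sum was carried mostly by Fabp4 (0.67 to 1.10), while Cfd lay at -3.89 to -0.58. Its overlap therefore says little about Cfd or the share of adipocytes. The summed level of 8 hepatocyte markers, 12.50 to 12.96 against 12.13 to 12.95, overlapped too. That of 8 stellate cell markers was 3.84 to 4.22 against 3.71 to 3.91 and overlapped, although all 8 had a total RNA difference above 0 (median 0.37) and none passed, with 4 at a limma unadjusted p under 0.05 when centred. That of 6 endothelial markers was 3.97 to 4.25 against 3.91 to 3.96, and all 6 differences were above 0 (median 0.12). That of 11 Kupffer cell markers was 5.68 to 6.16 in Maf1 KO and 5.19 to 5.45 in wild-type mice, without overlap. All 11 had a total RNA difference above 0 (median 0.60). With centred libraries 10 of the 11 had a limma unadjusted p under 0.05, where 8.48% of all genes had, and none passed. In footprints all 11 were above 0 too, and 5 had a centred unadjusted p under 0.05, where 4% of all genes had. The summed footprint levels overlapped. The 1 marker that passed in total RNA on the deposited scale was Marco, a scavenger receptor of macrophages. It rose by 2.21 (SE 0.28, limma adjusted p = 4e-11), a call lost with centred libraries (limma adjusted p = 0.195) and not made in footprints (limma adjusted p = 0.195). The part of these cells in the differences of G0s2 and Cidec was not tested.

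Other genes of droplets and neutral lipid hydrolysis were taken as a list of 36, of which 31 were measured. None of the 31 passed the limma test in total RNA, footprints or translation efficiency. In that order, 1, 0 and 0 had an unadjusted p under 0.05, where 3.61%, 2.49% and 0.734% of all genes had. Their median differences were -0.04, -0.19 and -0.12, beside 0.00, -0.18 and -0.19 over all genes. Plin3, the broadly expressed perilipin, had a total RNA difference of 0.17, Hsd17b13, a hepatocyte droplet enzyme, of -0.18, and Dgat2, which makes triglyceride, of -0.08. Of 22 measured PPAR alpha targets and fasting genes, 17 were below 0 in total RNA with a median of -0.19, 1 passed lower and none higher. That gene, Cyp4a10, a fatty acid hydroxylase, scored 11.88, 12.16 and 10.72 in Maf1 KO and 12.52, 13.76 and 12.52 in wild-type mice, and fell by 1.34 (SE 0.25, limma adjusted p = 0.000156), a call lost with centred libraries (limma adjusted p = 0.405). The SE of 0.25 is too small for the spread of Cyp4a10 between mice, so the adjusted p on the deposited scale does not measure that spread. Among the genes of this list that had been marked for naming, total RNA differences were of both signs, with Cpt1a, the carnitine palmitoyltransferase of mitochondrial entry, at -0.47, Ppara at -0.02, Angptl4, an inhibitor of lipoprotein lipase, at 0.75 and Pdk4, a kinase of pyruvate dehydrogenase, at 0.85. None of these 4 passed.

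Of 25 insulin-responsive and lipogenic genes, 3 passed higher in total RNA and none lower, where 0.276% of all genes passed in either direction, and the median difference was 0.13 beside 0.00 over all genes. The list was chosen with earlier results of these data known, and 1 of the 3 calls, Me1, was kept with centred libraries. Scd1, the stearoyl-CoA desaturase, rose by 1.17 (SE 0.24, limma adjusted p = 0.000853), from 14.57, 15.05 and 14.77 in wild-type to 16.60, 15.28 and 16.02 in Maf1 KO mice. Me1, the NADPH-producing malic enzyme, rose by 1.08 (SE 0.25, limma adjusted p = 0.00683) (limma adjusted p = 0.0157 with centred libraries). Igfbp1, a binding protein of insulin-like growth factors that insulin represses, rose by 2.07 (SE 0.27, limma adjusted p = 4e-11), yet its scores overlapped, being 11.53, 12.23 and 8.73 in Maf1 KO and 7.78, 8.29 and 10.23 in wild-type mice. That SE does not reflect the spread of Igfbp1 between mice and is too small. Maf1 KO 1 and 2, the mice with the highest Igfbp1, were those with the lowest G0s2, and Maf1 KO 4 was near the wild-type mice for both. Wild-type 3 did not follow this in total RNA. Its Igfbp1 (10.23) was above that of Maf1 KO 4 (8.73), while its G0s2 (13.76) lay between the other wild-type mice. A link between the 2 genes was not tested. In footprints Igfbp1 rose by 1.55 (SE 0.36, limma adjusted p = 0.018) and wild-type 3 (11.76), low in G0s2, was high beside wild-type 1 (7.36) and wild-type 2 (8.17). Wild-type 3 was high beside these mice for Scd1 (16.53 against 14.43 and 14.31) and Marco (8.86 against 6.30 and 6.82) too. With centred libraries Scd1 and Igfbp1 lost their total RNA calls, and Igfbp1 lost its footprint call as well. The footprint scores of Igfbp1 also overlapped between genotypes. Srebf1, the lipogenic transcription factor, differed by -0.32 in total RNA and did not pass.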

How the data were processed

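Livers of 3 Maf1 KO and 3 wild-type mice gave parallel footprint and total RNA libraries, with Drosophila S2 cell material added at 1 part to 15. As the study's methods describe, the authors mapped tags to dm6 and mm9, removed tags common to both, mapped the rest to coding sequences, normalized to total aligned tags and with TMM (edgeR), and applied a factor from the fly material to log2 values. The deposited table holds these log2 scores for 26260 transcripts. Whether they include the fly factor is not stated in the header. The aligner and depth are not given in the sources used here, so no counting interval was computed.

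Scores were averaged over the transcripts of each gene. Tests used limma 3.58.1 in R 4.3.3 (variance trend over abundance, genotype as the term, Benjamini-Hochberg over 11587 genes, threshold 0.05), and translation efficiency level with an intercept test. Prior degrees of freedom were infinite on the deposited scale, so variable genes such as G0s2, Cidec, Igfbp1, Marco, Cfd and Cyp4a10 had an SE that is too small there. The code was tested on simulated data. Coding lengths came from the NCBIM37 annotation (longest coding sequence) and promoters from RefSeq, GRCm38.p6. The members and gene lists were chosen with earlier results of these data known. Named genes were all members, list genes past the threshold, a fixed set of anchor genes where measured, and the 5 genes nearest to G0s2. Alternatives were centring, quantile normalization, a filter at the 0.25 quantile of the mean score, the top transcript, a common prior, the replicate number as a block and leaving out each mouse. Leaving out Maf1 KO 1 and wild-type 3 was added after the data had been seen.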

Additional observations from a re-analysis of the deposited data

How the results depend on the processing

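Counts over all genes depended on scaling. With centred libraries, total RNA had 2 genes past the threshold, footprints had 0 and translation efficiency 0, and with quantile normalization again 2, 0 and 0. Genes with a limma unadjusted p under 0.05 became more numerous with centring. They went from 418 to 983 in total RNA, from 288 to 464 in footprints and from 85 to 328 in translation efficiency. With centring these were 8.48%, 4% and 2.83% of all genes. With low scores removed the genes past the threshold were 21, 4 and 0, and with a common prior 20 in footprints and 9 in translation efficiency. The top transcript gave 0 in translation efficiency. Leaving out Maf1 KO 1 and wild-type 3, chosen after seeing the data, gave 0 in all 3, on either scale. Without 1 mouse, the counts ran from 1 to 30 in total RNA (lowest without Maf1 KO 1), from 0 to 53 in footprints (lowest without Maf1 KO 1, highest without wild-type 3), from 1 to 8 in translation efficiency and from 8041 to 8388 in translation efficiency level.

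The replicate block, on numbers 1 and 2 alone, called 9 genes for total RNA, 292 for footprints and 3 for translation efficiency. The labels do not say that a number pairs mice, and same-numbered mice correlated at 0.23 and 0.27 in total RNA and at -0.06 and 0.10 in footprints. Under the block, G0s2 was no longer past the threshold in total RNA (-1.38), footprints of G0s2 (-1.86) and Cidec (-1.93) passed, Plin2 footprints differed by -0.00306, and G0s2 translation efficiency by -0.48.

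Among the 9 genes, signs turned only for values that did not pass. In total RNA, Abhd5 was at 0.0158 without wild-type 1, and without 1 mouse Plin2 ran from -0.23 to 0.13, Plin4 from -0.36 to 0.28, Plin5 from -0.14 to 0.37 and Cideb from -0.14 to 0.27. Plin2 was at 0.0277 with quantile normalization, and without Maf1 KO 1 and wild-type 3 Plin5 was at -0.21 and Cideb at -0.34 (-0.11 with centring as well). In footprints, Plin5 and Cideb were at 0.0358 and 0.0359 with centring, and at 0.10 and 0.0832 with quantile normalization. Without Maf1 KO 1 and wild-type 3, footprints were 0.082 for Abhd5, 0.21 for Plin5 and 0.14 for Cideb, and Plin5 was at 0.0697 with centring as well. In translation efficiency, Pnpla2 was at 0.15 with centring and 0.15 with quantile normalization, Cidec at 0.0388 and 0.0644, and Abhd5 at -0.00407 for the top transcript. Without Maf1 KO 1 and wild-type 3 it was 0.41 for Pnpla2, 0.0907 for Plin4, 0.42 for Plin5 and 0.47 for Cideb, and with centring as well 0.0363 for Pnpla2, 0.0453 for Plin5 and 0.10 for Cideb. The level of G0s2 was -0.00302 with quantile normalization, -0.17 with low scores removed and -0.0307 for the top transcript.

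Without 1 mouse, footprint differences ran from -0.40 to 0.000303 for Mgll, -0.31 to 0.0485 for Plin5 and -0.31 to 0.0652 for Cideb. Translation efficiency ran from -0.0439 to 0.87 for G0s2, -0.39 to 0.42 for Pnpla2, -0.33 to 0.43 for Abhd5, -0.16 to 0.58 for Mgll, -1.19 to 0.0833 for Plin4, -0.67 to 0.19 for Plin5, -0.52 to 0.20 for Cideb and -0.57 to 0.16 for Cidec. The level ran from -0.25 to 0.36 for G0s2 and from -0.0385 to 0.54 for Cidec. The cause was not tested. Total RNA differences of Cidec stayed between -0.80 and -1.32 without 1 mouse. Low scores removed left out Plin4 and Cidec.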
